A study of Mus musculus with 12 samples.

Results

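CSF3R T618I was introduced on its own into HoxB8 cells, and the RNA of these cells was compared with that of cells that carried 2 empty vectors, across every gene counted. The comparison used the 3 libraries titled Empty/T618I and the 3 titled Empty/Empty, that is 6 of the 12 libraries of the series. Libraries were grouped by these titles and not by any measured value. The comparison and its gene lists were chosen with earlier results of these data known. HoxB8 cells are bone marrow cells of the mouse that were made to grow without limit by Hoxb8, a homeobox factor, kept active by estrogen. Both groups carried a pMIG vector without an insert. In Empty/T618I cells the pMICH vector held CSF3R with the T618I change, and in Empty/Empty cells it was empty as well. All cells grew in medium with serum, stem cell factor from conditioned medium and estrogen, and estrogen was withdrawn for 24 h before RNA was taken. The other 6 libraries, Asxl1-MT2/Empty and Asxl1-MT2/T618I, carried Asxl1-MT2, a truncated Asxl1, in the pMIG vector and are used below only where the same T618I difference was measured in them. Strain, sex and age of the mouse and the number of clones are not given in the sources used here.

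CSF3R is a cytokine receptor, bound by granulocyte colony-stimulating factor, which drives the production of neutrophils. It has no enzyme activity of its own: ligand binding brings receptor chains together, the attached kinase JAK2 is activated, and STAT3 and STAT5 carry the signal to the nucleus, while RAS and ERK and the PI3K pathway are activated beside them. Genes of the SOCS family are switched on by STAT factors and shut the receptor down again. T618I changes a residue close to the membrane and lets the receptor signal without ligand, and it is a recurrent mutation of chronic neutrophilic leukaemia.

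Levels are given as CPM, the usual depth-normalised count with each library's total scaled by a TMM factor, and differences as log2 fold changes of Empty/T618I over Empty/Empty with their standard error (SE). A gene was called when its adjusted p in edgeR's quasi-likelihood test was under 0.05. The 6 libraries held 9341984 to 10204473 counts, and on the first principal component of the 6, with 83.3% of the variance, the Empty/Empty libraries lay between -42.4 and -39.5 and the Empty/T618I libraries between 36.5 and 46.2. For 1 library, titled Empty/Empty 3, the genotype label names the T618I vector and so goes against the title. The table names its columns by letters, so which column this is cannot be told, and each library was left out in turn. Csf3r, the gene of the construct, was called higher at 0.53 ± 0.167 log2, but its adjusted p was 0.0746 without Empty/Empty library C, and whether construct reads count to it is not given. Hoxb8 went from 651, 705 and 626 CPM in Empty/Empty libraries A, B and C to 332, 242 and 299 CPM in Empty/T618I libraries A, B and C, a fall of 1.18 ± 0.103 log2 (adjusted p = 9.76e-08, edgeR), and its part in the changes below was not tested. No label states whether the 3 libraries of a group are separate cultures. A p-value therefore reflects only how far these libraries spread, and that spread can be technical.

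Of 11578 genes tested, 2038 rose and 1840 fell in Empty/T618I, that is 17.6% and 15.9%, or 33.5% in all. The shares of 17.6% and 15.9% are to be set beside the counts of every gene list below. In 22.9% of the genes tested all 3 T618I libraries lay above all 3 empty ones, and in 21.7% all 3 lay below. These shares are to be set beside every statement below that the groups did not overlap. Large rises were more numerous than large falls. At least 2-fold rises were called for 887 genes (7.66%) and falls of that size for 458 (3.96%), and at least 16-fold changes for 169 and 28. The median log2 fold change of all genes was 0.00, with quartiles of -0.22 and 0.22. TMM scaling sets this median near 0, so a shift shared by most genes could not be seen. Large rises were concentrated among genes with few counts. Of the 449 genes with a mean under 1 CPM, 26.1% were called at least 2-fold higher and 12% lower, against 4.40% and 2.03% of the 6163 genes between 10 and 100 CPM, but a gene of low level passed the filter only where at least 1 group expressed it.

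**Figure D1:**
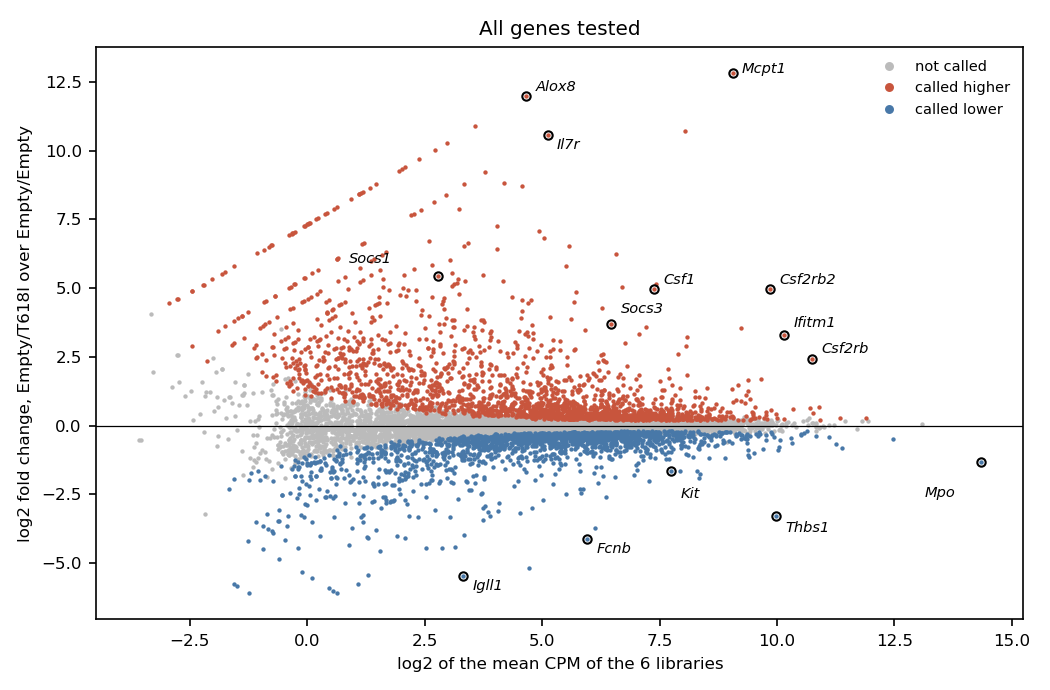
Each point is 1 of the 11578 genes tested, with the log2 of its mean CPM over the 6 libraries on the x axis and its log2 fold change, Empty/T618I over Empty/Empty, on the y axis. Red points were called higher (2038), blue points lower (1840) and grey points were not called. Points on the straight diagonal streak at the upper left have 0 counts in Empty/Empty, and their fitted fold change depends on the prior count of the model.

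Changes were also summed in CPM, which is a share of each library's scaled total and not an absolute level. The rises added up to 7.07% of all counts and the falls to 7.64%, and shares of a fixed total have to nearly balance in this way. Mpo, the peroxidase of primary granules, made up 23.2% of the summed fall by itself. After Mpo, the largest losses in CPM were those of Calr, a calcium-binding chaperone, and Thbs1, the matrix protein thrombospondin. Thbs1 stood at 1456, 1774 and 2260 CPM in Empty/Empty libraries A, B and C and at 218, 86.0 and 261 CPM in Empty/T618I libraries A, B and C. All 3 T618I libraries were below all 3 empty ones, and the difference was -3.28 ± 0.28 log2 (adjusted p = 7.85e-08, edgeR). The largest gains in CPM were those of Csf2rb, Ifitm1, Csf2rb2, Mcpt1 and Mcpt8. Ifitm1, an interferon-inducible membrane protein, went from 206, 194 and 228 to 2063, 2238 and 1856 CPM over libraries A, B and C, with no overlap between the groups.

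There were 40 genes with 0 counts in all Empty/Empty libraries and at least 30 counts over the Empty/T618I libraries, and 0 genes of the opposite kind. Against 3 counts over the group, which is the limit that a count of 0 allows, Alox8, a lipoxygenase, was at least 496-fold higher. In the same terms Fcer1a, the ligand-binding chain of the IgE receptor, was at least 231-fold higher and Cd38, an enzyme that degrades NAD, at least 83.4-fold. Tph1, which starts serotonin synthesis, was at least 75.7-fold higher, and Ccl2, a chemokine for monocytes, at least 54.6-fold. These limits allow for counting error alone. Whether PCR copies of a molecule were counted as separate reads is not known here. In the other direction the largest falls of genes with at least 5 CPM were those of Igll1, the surrogate light chain of B cell precursors, and Afap1, an actin-binding adaptor. Igll1 stood at 17.7, 18.6 and 22.2 CPM in Empty/Empty libraries A, B and C and at 0.577, 0.382 and 0.313 CPM in Empty/T618I libraries A, B and C, a fall of 5.47 ± 0.351 log2. Afap1 went from 49.2, 57.0 and 48.3 to 3.46, 0.286 and 0.417 CPM, and its Empty/T618I library A was higher than the other 2. Fcnb, a ficolin of neutrophil granules, went from 119, 118 and 117 to 11.5, 4.01 and 4.49 CPM, again with the highest T618I value in library A. Nrg2, an epidermal growth factor family ligand, went from 18.7, 19.2 and 19.6 to 1.73, 1.05 and 0.835 CPM, and its groups were narrow on both sides.

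Among JAK and STAT genes and their inhibitors, the largest differences were those of 3 feedback inhibitors. Among 8 SOCS genes tested 3 rose and 1 fell (37.5% and 12.5%), and among 11 JAK and STAT genes 3 rose and 2 fell (27.3% and 18.2%). Of all genes 17.6% rose and 15.9% fell, so the counts of these short lists say little by themselves. Socs1, which binds and blocks JAK kinases, stood at 0.403, 0.298 and 0.206 CPM in Empty/Empty libraries A, B and C and at 13.7, 14.7 and 12.2 CPM in Empty/T618I libraries A, B and C, a rise of 5.42 ± 0.361 log2 (adjusted p = 4.05e-09, edgeR). Socs3, which binds CSF3R and gp130 receptors, stood at 13.8, 11.9 and 12.4 and 167, 151 and 176 CPM, and Cish, the inhibitor typical of STAT5 signalling, at 4.53, 4.17 and 4.23 and 22.8, 20.4 and 22 CPM. For these 3 genes the lowest T618I library was far above the highest empty one, and the T618I libraries lay close together. Socs2, Socs4, Socs6 and Socs7 were not called, with log2 fold changes of 0.34, 0.27, 0.08 and 0.14. Socs5 was called lower at -0.40 ± 0.129 log2, but that call was lost in 4 of the 6 settings that left out 1 library, with an adjusted p up to 0.164 in edgeR.

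Jak2, the kinase that CSF3R uses, rose from 48.0, 58.2 and 64.8 CPM in Empty/Empty libraries A, B and C to 112, 86.6 and 146 CPM in Empty/T618I libraries A, B and C (1.01 ± 0.165 log2, adjusted p = 0.000122, edgeR). Jak3, the partner of the common gamma chain, rose by 0.56 ± 0.0998 and Stat3 by 0.46 ± 0.0792. Tyk2, a kinase of interferon and interleukin 12 receptors, fell by 0.52 ± 0.0787 log2. Stat5a, Stat5b and Stat6 were not called, with log2 fold changes of 0.13, 0.19 and 0.13. Stat4 was called lower at -0.42 ± 0.114, with an adjusted p of 0.0592 in edgeR without Empty/Empty library B. Of 12 other brakes on this pathway, phosphatases and ubiquitin ligases, 4 were called higher and 0 lower (12 tested), and Ptprc, the phosphatase CD45, had the largest difference at 0.63 ± 0.118 log2. Without Empty/T618I library A, 1 of the 12 was called higher.

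Genes that STAT factors are known to drive were higher in 12 of 18 cases and lower in 2, against 17.6% and 15.9% of all genes, with a median log2 fold change of 0.67 against 0.00. Osm, the cytokine oncostatin M, stood at 4.43, 5.77 and 5.26 CPM in Empty/Empty libraries A, B and C and at 36.0, 41.2 and 40.3 CPM in Empty/T618I libraries A, B and C (2.92 ± 0.136 log2, adjusted p = 7.67e-11, edgeR). Bcl3, an atypical inhibitor of NF-kB, went from 32.0, 33.5 and 22.6 to 114, 111 and 98.1 CPM. Junb, an AP-1 subunit, rose by 1.83 ± 0.109 log2 and Pim2, a survival kinase, by 1.42 ± 0.138. The members that fell were D cyclins. Ccnd2, which drives the entry into S phase, stood at 187, 193 and 199 CPM in Empty/Empty and at 53.1, 64.7 and 47.5 CPM in Empty/T618I libraries A, B and C, and the groups were far apart. Ccnd1 fell by 1.58 ± 0.253 log2 from a low level, 9.26, 6.86 and 8.25 CPM in Empty/Empty. Myc, the most abundant member that was not called, was at 400.0, 408 and 339.7 and 358, 399.6 and 296 CPM, and its groups overlapped.

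Cytokine receptor genes rose in 24 of 38 cases and fell in 6 (41 were on the list and 3 had too few counts), again beside 17.6% and 15.9% of all genes. The strongest by p-value were the beta chains of the receptors for interleukin 3, interleukin 5 and GM-CSF. Csf2rb2, the chain that only serves interleukin 3 in the mouse, stood at 58.3, 57.0 and 55.2 CPM in Empty/Empty libraries A, B and C and at 1730, 1463 and 2138 CPM in Empty/T618I libraries A, B and C (4.97 ± 0.126 log2, adjusted p = 6.15e-14, edgeR). Csf2rb, the shared chain, went from 542, 563 and 499 to 2697, 2922 and 3053 CPM (2.44 ± 0.0822 log2). The 3 empty libraries of each gene lay within a narrow range, and all T618I libraries were above them. Csf2rb (chromosome 15, 78325800 to 78351001, GRCm38.p6) and Csf2rb2 (chromosome 15, 78282507 to 78305721) are near-identical neighbours, so the split of reads between them is uncertain. None of the 3 alpha chains was called higher. Il5ra, named after its values were seen, was not called, at 4.03, 2.88 and 2.58 and 2.21, 2.19 and 2.71 CPM (-0.42 ± 0.298 log2). Il3ra went from 28.9, 22.3 and 17.8 to 15.5, 11.9 and 15.1 CPM, a fall of 0.70 ± 0.161 log2, and Csf2ra was called lower at -0.51 ± 0.186, a call that was lost in DESeq2 and in 4 of the 6 edgeR settings that left out 1 library (adjusted p up to 0.161).

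Receptors that Empty/Empty cells almost lacked appeared in Empty/T618I cells. Il7r, the alpha chain of the receptor for interleukin 7, had 1 count over the 3 Empty/Empty libraries and 2093 over the 3 Empty/T618I libraries, a ratio of 2040 with an exact 95% interval from 366 to 80600 (counting error only). In CPM it stood at 71.0, 46.6 and 90.4 in Empty/T618I libraries A, B and C. Osmr, the receptor for oncostatin M, had 1 count against 281, a ratio of 274 (exact 95% interval 48.7 to 10800), so that ligand and receptor were both higher. Il1rl1, the receptor for interleukin 33 that mast cells carry, went from 9.56, 6.96 and 11.7 to 331, 205 and 463 CPM, and library B was lowest in both groups. A receptor of progenitors and mast cells was lower. Kit, the receptor for the stem cell factor in the medium, stood at 326, 350.4 and 302 CPM in Empty/Empty and 109, 96.8 and 108 CPM in Empty/T618I libraries A, B and C (-1.64 ± 0.102 log2, adjusted p = 2.01e-09, edgeR). Ifngr1, the ligand-binding chain of the interferon gamma receptor, fell by 0.67 ± 0.0764 log2, and Ifnar2 of the type I interferon receptor was not called at 0.07 ± 0.0776.

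**Figure D2:**
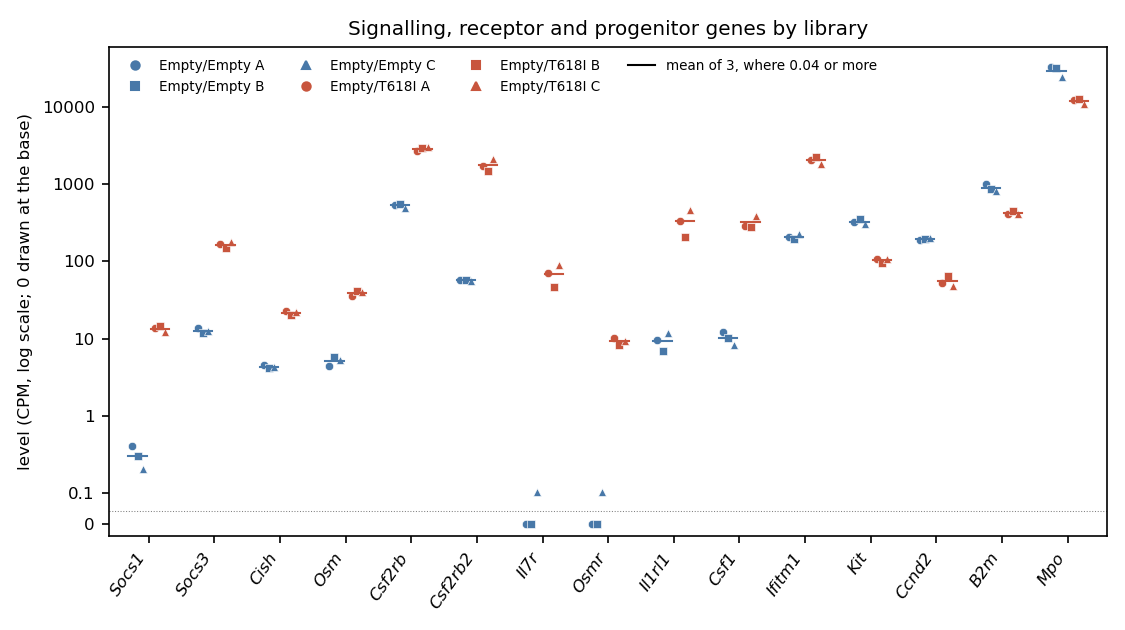
Levels in CPM (log axis, 0 drawn at the base) of 15 genes in the 3 Empty/Empty libraries (blue) and the 3 Empty/T618I libraries (red), with a symbol for each column letter and a line at the mean of 3 where it is 0.04 CPM or more. The 15 genes were picked for display from those called, and in none of them did the groups overlap. Of all genes tested, 22.9% had all 3 T618I libraries above all 3 empty ones and 21.7% had them below. Kit, Ccnd2, B2m and Mpo were lower in Empty/T618I and the other 11 higher.

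The starts of 4 of these genes are shown because each holds the letters TTCNNNGAA, the core that STAT3 and STAT5 are known to bind. The sequences are RefSeq promoters on GRCm38.p6, read 5′ to 3′ on the strand of the gene, from 250 bases before a transcript start to 20 bases after it, with the match in capitals. Socs3 lies at chr11:117969347-117969616 on the minus strand, Cish at chr9:107296409-107296678 on the plus strand, Csf2rb2 at chr15:78305702-78305971 and Il7r at chr15:9529857-9530126, both on the minus strand.
Socs3: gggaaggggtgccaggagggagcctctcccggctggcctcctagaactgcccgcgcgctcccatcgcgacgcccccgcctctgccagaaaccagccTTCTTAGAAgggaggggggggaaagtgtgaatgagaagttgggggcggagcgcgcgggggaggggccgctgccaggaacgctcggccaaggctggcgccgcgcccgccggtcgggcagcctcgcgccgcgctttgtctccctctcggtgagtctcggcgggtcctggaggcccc
Cish: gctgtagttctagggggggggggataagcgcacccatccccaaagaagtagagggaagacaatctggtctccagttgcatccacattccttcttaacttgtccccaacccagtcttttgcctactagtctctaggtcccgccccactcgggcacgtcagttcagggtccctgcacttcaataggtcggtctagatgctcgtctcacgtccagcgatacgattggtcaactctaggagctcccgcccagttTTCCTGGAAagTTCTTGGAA
Csf2rb2: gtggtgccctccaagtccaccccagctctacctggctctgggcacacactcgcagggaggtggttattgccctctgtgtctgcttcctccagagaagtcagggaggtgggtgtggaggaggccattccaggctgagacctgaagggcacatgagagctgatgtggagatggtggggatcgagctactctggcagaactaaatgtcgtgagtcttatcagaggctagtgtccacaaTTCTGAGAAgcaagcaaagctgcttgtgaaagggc
Il7r: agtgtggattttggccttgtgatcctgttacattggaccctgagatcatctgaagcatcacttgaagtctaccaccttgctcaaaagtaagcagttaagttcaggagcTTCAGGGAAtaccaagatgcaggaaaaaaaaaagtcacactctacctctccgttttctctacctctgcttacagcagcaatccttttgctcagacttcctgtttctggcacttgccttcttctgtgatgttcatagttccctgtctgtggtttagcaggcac
The match began 154 bases before the start in Socs3, 15 before it in Csf2rb2 and 142 before it in Il7r, and in Cish at bases 1 and 12 of the transcript. The motif reads the same on both strands. Over windows of 250 bases before to 50 after the start, 8.30% of 32851 RefSeq promoters held it. Among the 8920 tested genes with a promoter in that table it was present in 8.48%. The share was 9.90% of genes that rose, 12% of those that rose at least 2-fold, 7.76% of genes that fell, 10.6% of those that fell at least 2-fold and 8.28% of genes not called. The promoter of Socs1 did not hold these letters, nor did any of 14 mast cell and basophil markers with a promoter in the table, while 6 of 32 cytokine receptors did (18.8%). Of 13 STAT effector genes 1 held it (7.69%), a share below that of all tested genes. A match is a description of the letters and not evidence of binding.

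Secreted cytokines and chemokines rose in 13 of 26 tested cases and fell in 5, out of 51 on the list. Csf1, the growth factor of macrophages, stood at 12.3, 10.3 and 8.36 CPM in Empty/Empty libraries A, B and C and at 292, 281 and 392 CPM in Empty/T618I libraries A, B and C (4.96 ± 0.158 log2, adjusted p = 9.57e-13, edgeR), with the groups far apart. Lif, a gp130 cytokine, went from 0.101, 0 and 0.309 to 5.58, 5.92 and 6.47 CPM and was higher in every T618I library than in any empty one. Il6, a further member of that family, went from 0.805, 0.994 and 1.03 to 16.3, 7.63 and 19.7 CPM, with library B the lowest of the T618I group. Falls were seen for Il12a, a chain of interleukin 12, which fell by 1.59 ± 0.213 log2, for Il15 (-1.08 ± 0.181) and for Vegfa, the vascular growth factor (-0.85 ± 0.0843). Tgfb1, the most abundant member, was not called (0.22 ± 0.104 log2).

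Of 20 feedback genes of the ERK pathway 9 were called higher and 4 lower, but 5 to 8 were called higher when 1 library was left out. Ier3, an early response gene, rose by 2.51 ± 0.149 log2 and Dusp16, a phosphatase of JNK and p38 kinases, by 1.91 ± 0.266, while Dusp2, a phosphatase of ERK, fell by 0.81 ± 0.138 log2. Of 29 PI3K genes 8 rose and 5 fell, 27.6% and 17.2% of the list against 17.6% and 15.9% of all genes, so the share that fell was near that of all genes. The regulatory subunits of the PI3K that serves chemoattractant receptors went opposite ways. Pik3r5 went from 7.15, 7.16 and 7.53 CPM in Empty/Empty to 42.0, 41.1 and 43.4 CPM in Empty/T618I libraries A, B and C, and Pik3r6 from 13.6, 14 and 11.4 to 5.77, 2.96 and 5.22 CPM, with no overlap between groups in either gene. Of 21 NF-kB genes 11 were called higher and 1 lower, and 7 were called higher without Empty/Empty library A. Map3k8, a kinase upstream of ERK and NF-kB, rose by 2.04 ± 0.284 log2.

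Markers of mast cells and basophils, granulocytes that carry histamine and the IgE receptor, rose in 16 of 17 cases and fell in 0, against 17.6% and 15.9% of all genes, with a median log2 fold change of 3.56. Their summed level lay between 1192 and 1383 CPM in the Empty/Empty libraries and between 3888 and 7378 in the Empty/T618I libraries. Since these are bulk libraries, more cells of a type and more RNA per cell cannot be told apart here or below. The chymase genes Mcpt1 and Mcpt2 and the basophil protease gene Mcpt8 lie in 1 cluster on chromosome 14 (56017964 to 56085499 from Mcpt1 to Mcpt8, GRCm38.p6), and reads of such copies may be split between them. Mcpt1 stood at 0.201, 0.0994 and 0.103 CPM in Empty/Empty libraries A, B and C and at 1439, 567 and 1186 CPM in Empty/T618I libraries A, B and C (12.82 ± 0.507 log2, adjusted p = 8.1e-12, edgeR). Mcpt2 went from 0.101, 0.298 and 0.516 to 671, 238 and 673 CPM, and Mcpt8 from 104, 80.0 and 97.6 to 1341, 753 and 1242 CPM. Every T618I library was above every empty one in these genes, and library B had the lowest T618I level.

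That order held for the whole list. Empty/T618I library B was the lowest of its group for 16 of the 16 markers called higher, against 47.7% of all genes called higher and 61.9% of those at least 2-fold higher. All 16 calls were made in each of the 6 settings that left out 1 library, library B included. Not every marker was new to the cells. Cpa3, the carboxypeptidase of mast cells, and Hdc, which makes histamine, were at 572 and 411 CPM on average in Empty/Empty cells and had the smallest rises of the list. Mitf, a factor of mast cell development, was not called, at 4.53, 5.57 and 6.19 and 3.85, 3.34 and 5.95 CPM, and its groups overlapped. Kit, which mast cells carry, and Il3ra, which basophils carry, are not on this list. Both were called lower, as given above, at -1.64 ± 0.102 and -0.70 ± 0.161 log2. Beyond this list, 18 of 22 genes of histamine, heparin and granule storage rose, but the lists share 11 genes (64.7% of the tested mast cell list and 50% of the storage list), and of the 11 storage genes outside the mast cell list 7 rose and 1 fell. Srgn, the core protein that carries heparin and the most abundant gene of this list, was not called, at 2133, 1989 and 1895 and 2148, 1813 and 2077 CPM. Gata2, the factor that mast cells and progenitors share, went from 72.2, 63.6 and 63.1 to 449, 294 and 481 CPM, and Gata1 from 5.44, 4.67 and 4.75 to 56.1, 32.5 and 53.5 CPM, again with library B lowest in T618I. Of 11 GATA factors and partners 7 rose and 0 fell.

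**Figure D3:**
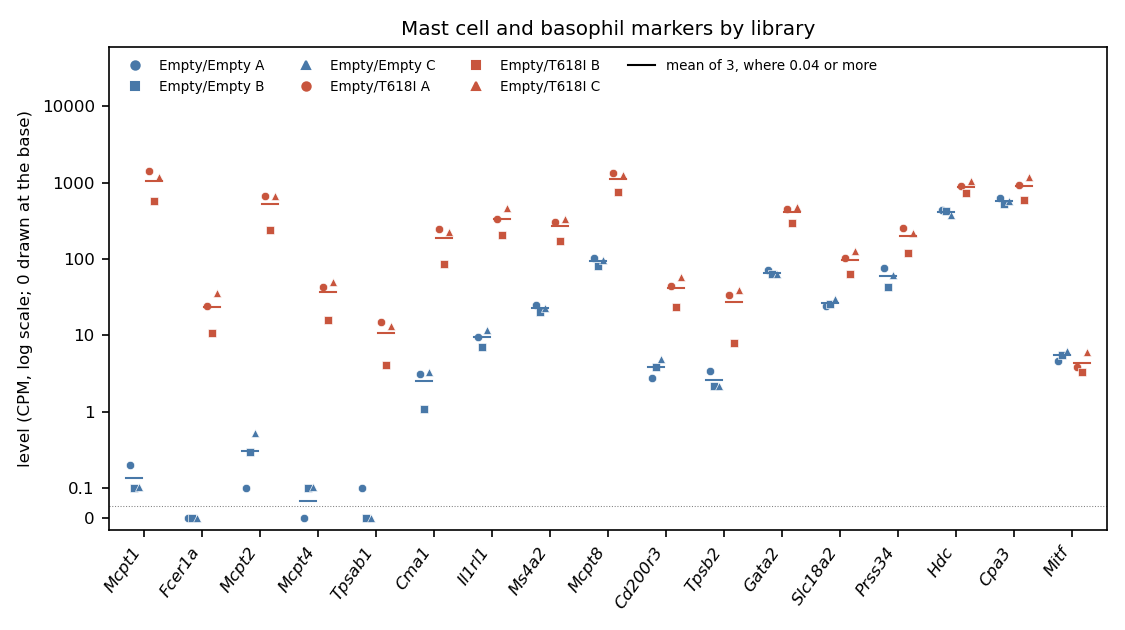
Levels in CPM (log axis, 0 drawn at the base) of the 17 tested mast cell and basophil markers in the 3 Empty/Empty libraries (blue) and the 3 Empty/T618I libraries (red), ordered by log2 fold change, with a symbol for each column letter and a line at the mean of 3 where it is 0.04 CPM or more. The red square, Empty/T618I library B, is the lowest red point in each of the 17 columns, and 16 of the 17 genes were called higher.

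Neutrophil markers rose in 11 of 15 cases and fell in 2, with a median log2 fold change of 1.46. These were 73.3% and 13.3%, against 17.6% and 15.9% of all genes. The 11 include Csf3r, the gene of the construct, whose call was lost without Empty/Empty library C and which may carry construct reads. Retnlg, a resistin-like protein of mature neutrophils, went from 2.62, 0.497 and 1.96 CPM in Empty/Empty libraries A, B and C to 27.9, 20.7 and 24.0 CPM in Empty/T618I libraries A, B and C (3.83 ± 0.325 log2, adjusted p = 7.16e-08, edgeR). Cd177, a surface glycoprotein of neutrophils, went from 32.8, 15.1 and 25.7 to 140.2, 112 and 109 CPM. Padi4, the enzyme that loosens chromatin for neutrophil extracellular traps, rose by 0.92 ± 0.218 log2. The 2 members that fell were Camp and Cebpe. Camp, the cathelicidin of secondary granules, went from 18.0, 9.94 and 22.2 to 6.06, 3.53 and 2.61 CPM, and Cebpe, a factor needed for those granules, from 250.1, 244 and 224 to 136, 139.7 and 118 CPM, without overlap. Of other genes for neutrophil granule proteins, named here after their values were seen, Lcn2 rose by 1.46 ± 0.139 log2 and Mmp8 by 5.02 ± 0.247, and Ltf, lactoferrin, was not called at 0.09 ± 0.278. Ngp, a granule protein, was not called either (-0.60 ± 0.228 log2, adjusted p = 0.051, edgeR).

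Progenitor markers went the other way. Of 15 genes 11 were called lower and 2 higher (9 lower without Empty/Empty library A), and their summed level was 35320 to 44330 CPM in Empty/Empty and 16890 to 20060 CPM in Empty/T618I, most of it Mpo. Myb, which keeps progenitors dividing, stood at 982, 1147 and 1059 CPM in Empty/Empty libraries A, B and C and at 571, 608 and 605 CPM in Empty/T618I (-0.84 ± 0.105 log2, adjusted p = 7.26e-06, edgeR). Cd93, a surface receptor of early myeloid cells, went from 202, 209 and 191 to 101, 107 and 91.8 CPM, and both groups were narrow. Cd34, the sialomucin of stem and progenitor cells, was not called at -0.04 ± 0.142 log2, and Meis1, a partner of Hox factors, rose by 0.72 ± 0.175. The primary granule enzyme genes Prtn3 and Ctsg were lower by 0.67 ± 0.11 and 0.83 ± 0.0985 log2, while Ctsc, which activates those enzymes, rose by 0.76 ± 0.11.

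Markers of other lineages were mostly low. Of 17 monocyte markers 11 were tested, of which 4 were called higher and 2 lower, and their summed level was 640 to 719 CPM in Empty/Empty and 577 to 628 in Empty/T618I. The log2 fold changes of these 11 ran from -2.32 to 1.15, with 2 called at least 2-fold higher and 2 at least 2-fold lower. Ly6c2, the antigen of inflammatory monocytes and 1 of the 2 called lower, fell from 97.4, 99.1 and 84.4 to 25.6, 17.7 and 12.9 CPM. Of 14 erythroid markers 6 were tested, of which 5 were called higher and 1 lower, with a median log2 fold change of 2.27, and 5 were called higher in each setting that left out 1 library. Among the 5 were Gata1, given above, and Car2, a carbonic anhydrase (0.81 ± 0.122 log2). The summed level of the 6 was nonetheless 645 to 703 CPM in Empty/Empty and 573 to 634 CPM in Empty/T618I, most of it Tfrc, the transferrin receptor that dividing cells also carry, which was called lower (-0.38 ± 0.11 log2) but not without Empty/Empty library B, Empty/T618I library A or Empty/T618I library C (adjusted p up to 0.0844, edgeR). The 4 haemoglobin genes of that list had 0 counts in all 6 libraries. Of the 7 tested of 13 megakaryocyte markers 3 were called higher and 2 lower, and they summed to 83.7 to 102 CPM against 148 to 214. Itga2b, an integrin of megakaryocytes and mast cells, rose by 1.73 ± 0.148 log2 and its partner Itgb3 fell by 2.00 ± 0.189. The 3 tested of 14 B cell markers were called lower and summed to 24.6 to 28.8 CPM against 1.35 to 1.81, nearly all of it Igll1 and Cd79b, while Ms4a1 and Pax5 had 0 counts. Cd3e, Cd8a and Ncr1 of T and NK cells had 0 counts as well, and Nkg7, a granule protein of cytotoxic cells, fell by 1.84 ± 0.134 log2. The 2 tested of 13 stromal markers summed to at most 16 CPM in any of the 6 libraries. The part of these other cell types in the changes above was not tested.

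Transcription factors of the myeloid lineage were divided. In the C/EBP family Cebpb, which drives emergency granulopoiesis, went from 87.3, 83.2 and 126 CPM in Empty/Empty libraries A, B and C to 168, 165 and 185 CPM in Empty/T618I libraries A, B and C (0.80 ± 0.151 log2, adjusted p = 0.000442, edgeR), and Cebpa, needed for granulocyte commitment, was not called at -0.09 ± 0.0974. Spi1, the ETS factor PU.1, was not called either (0.11 ± 0.0909 log2), while Runx1 rose from 73.7, 79.0 and 70.0 to 144, 133 and 154 CPM without overlap. Of 17 nuclear receptors 5 rose and 4 fell, 29.4% and 23.5% of the list against 17.6% and 15.9% of all genes. When 1 library was left out, 2 to 3 of these receptors were called lower. Rara, a retinoic acid receptor, went from 2.52, 1.99 and 2.06 to 21.1, 23.8 and 19.0 CPM, and Thra, a thyroid hormone receptor, fell by 0.86 ± 0.116 log2. Of 12 Krüppel-like factors 7 rose and 1 fell, with Klf2 at 2.53 ± 0.258 log2 the largest. Of 17 AP-1, ATF and MAF factors 8 rose and 1 fell, among them Jund at 1.33 ± 0.0998 and Fosl2 at 1.26 ± 0.164 log2. Of 20 helix-loop-helix and ID factors 8 rose and 2 fell. Id1, an inhibitor of helix-loop-helix factors, went from 26.6, 23.7 and 33.2 to 58.5, 57.3 and 60.6 CPM, and Id3 had 2 counts over the Empty/Empty libraries and 162 over the Empty/T618I libraries, a ratio of 78.9 (exact 95% interval 21.5 to 657). Of 7 interferon regulatory factors 2 rose and 1 fell at least 2-fold, 28.6% and 14.3% of the list, with a median log2 fold change of 0.05. The 2 that rose were Irf9 and Irf1, by 0.55 ± 0.142 and 0.39 ± 0.0969 log2.

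Surface receptors that guide leukocytes rose in most cases. Of 32 chemoattractant receptors 22 rose and 4 fell, with a median log2 fold change of 1.52, out of 40 on the list. These were 68.8% and 12.5%, against 17.6% and 15.9% of all genes. Adora3, an adenosine receptor of mast cells, stood at 0.403, 0.199 and 0.413 CPM in Empty/Empty libraries A, B and C and at 17.3, 11.4 and 20.8 CPM in Empty/T618I libraries A, B and C. Fpr1, the receptor for bacterial formyl peptides, went from 0.302, 0.199 and 0.309 to 9.23, 7.35 and 9.08 CPM and C3ar1, the receptor for complement C3a, from 0.604, 0.199 and 0.928 to 15, 9.16 and 19.6 CPM. The receptor that holds cells in the marrow moved the other way: Cxcr4 went from 206, 199 and 181 to 107, 94.4 and 99.1 CPM (-0.96 ± 0.0852 log2, adjusted p = 1.26e-07, edgeR). Of 32 integrins, selectins and ligands 11 rose and 5 fell, 34.4% and 15.6% against 17.6% and 15.9% of all genes. The share that fell was thus near that of all genes. Icam1, the ligand of leukocyte integrins, went from 18.4, 17.9 and 16.8 to 51.4, 51.2 and 53.3 CPM.

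Of 20 Fc receptors and their adaptors 15 rose and 2 fell. Fcgr1, the high-affinity IgG receptor, went from 2.01, 2.48 and 4.64 CPM in Empty/Empty libraries A, B and C to 15.5, 14.2 and 13.5 CPM in Empty/T618I libraries A, B and C, and Lat, the adaptor of IgE and T cell receptors, rose by 4.26 ± 0.272 log2. C-type lectins and inhibitory receptors changed in both directions, with 18 of 35 higher and 10 lower. The paired inhibitory receptors Lilr4b and Lilrb4a, which are close copies, rose by 4.27 ± 0.219 and 3.33 ± 0.18 log2, and Pirb by 3.10 ± 0.236. Mgl2, a galactose-binding lectin of macrophages, went from 16.8, 19.3 and 14.3 to 1.06, 0.382 and 0.939 CPM, and Clec12a, an inhibitory lectin of myeloid cells, from 354, 363 and 399 to 122, 112 and 120.1 CPM, with no overlap. Of 32 toll-like receptor and inflammasome genes 13 rose and 7 fell, and Tlr2, which senses bacterial lipoproteins, went from 12.6, 11.2 and 13.3 to 49.1, 52.0 and 55.6 CPM. Of 22 TNF family genes 8 rose and 3 fell, 36.4% and 13.6% against 17.6% and 15.9% of all genes. Tnfsf14, the ligand LIGHT, was higher by 2.73 ± 0.146 log2 and Tnfrsf1b, a TNF receptor, lower by 1.02 ± 0.0951.

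Genes of antigen presentation were lower more than higher. Of 23 tested genes of antigen presentation 11 were lower and 3 higher, against 15.9% and 17.6% of all genes. B2m, the light chain of class I molecules, stood at 997, 876 and 829.9 CPM in Empty/Empty libraries A, B and C and at 416, 456 and 409 CPM in Empty/T618I libraries A, B and C (-1.08 ± 0.0905 log2, adjusted p = 6.49e-08, edgeR). H2-D1, a class I heavy chain, went from 302, 292 and 210.4 to 144, 153 and 119.9 CPM, and Nlrc5, the activator of class I genes, from 19.1, 19.8 and 19.8 to 8.36, 11.1 and 7.51 CPM. In all 3 genes the highest T618I library was below the lowest empty one. H2-T23, a class I-like gene, went against this and rose by 1.28 ± 0.123 log2, and Tapbp, the most abundant member not called, was at 0.19 ± 0.0919. H2 genes resemble each other, so the split of their reads is uncertain.

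Enzymes that make lipid mediators changed in both directions, with 12 of 24 higher and 6 lower. Alox8 was at 0 counts in all Empty/Empty libraries and at 47.4, 29.9 and 75.3 CPM in Empty/T618I libraries A, B and C. Ptgs2, the inducible cyclooxygenase, rose by 2.72 ± 0.345 log2 from 1.41, 0.497 and 1.65 CPM. Lta4h, which makes the neutrophil attractant leukotriene B4, stood at 880.2, 974 and 950.3 CPM in Empty/Empty and at 414, 431 and 422 CPM in Empty/T618I (-1.15 ± 0.0749 log2, adjusted p = 3.21e-09, edgeR), and the spread in both groups was small beside the difference. Among proteases and their inhibitors, 9 of 18 metalloproteinase genes rose and 1 fell, and 9 of 17 serpin and cystatin genes rose and 4 fell. Adam8, a protease of activated leukocytes, went from 13.4, 9.94 and 8.98 to 71.4, 48.8 and 97.3 CPM and Serpine2, an inhibitor of thrombin, from 1.31, 1.79 and 1.65 to 95.7, 97.2 and 75.9 CPM. Serpinf1, the pigment epithelium-derived factor, fell from 23.7, 25.9 and 24.4 to 2.40, 2.48 and 1.98 CPM.

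Nos2, the inducible nitric oxide synthase, was counted 1 time in the empty libraries and 833 times in the T618I libraries, a ratio of 811 (exact 95% interval 145 to 32100), and stood at 25.2, 26.9 and 30.2 CPM in libraries A, B and C. Of 21 NAD and nucleotide enzymes 10 rose and 4 fell. Nt5e, which makes adenosine outside the cell, went from 5.13, 2.98 and 5.47 to 32.3, 51.2 and 52.0 CPM. Entpd3, which removes phosphate from ATP, had 2 counts against 571, a ratio of 278 (exact 95% interval 76.6 to 2300). Of 22 genes of the nuclear lamina and of chromatin release 8 were called higher and 6 lower (3 lower without Empty/Empty library B). Sun2, which ties the nuclear envelope to the cytoskeleton, stood at 975, 1021 and 930.3 CPM in Empty/Empty and at 491, 490.2 and 491 CPM in Empty/T618I libraries A, B and C, and Lmna, the A-type lamin, rose by 1.81 ± 0.217 log2. Of 33 iron and haem genes 9 rose and 7 fell, 27.3% and 21.2% against 17.6% and 15.9% of all genes. Hmox1, which degrades haem, went from 9.56, 7.36 and 9.08 to 54.9, 31.7 and 56.7 CPM. Of 33 antioxidant genes 12 rose and 6 fell, 36.4% and 18.2% of the list. The cystine importer Slc7a11 rose by 1.75 ± 0.153 log2 and Gclm, a subunit of the enzyme that starts glutathione synthesis, by 1.06 ± 0.0858, while the glutathione transferase Gstm1 went from 554, 489 and 488 to 161, 126 and 168 CPM.

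Genes of protein export fell by small amounts. Of 47 genes of endoplasmic reticulum chaperones and export 24 were lower and 3 higher, with a median log2 fold change of -0.22, and 16 to 24 were lower when 1 library was left out (16 without Empty/T618I library C). Calr stood at 6966, 6364 and 6628 CPM in Empty/Empty libraries A, B and C and at 4780, 4583 and 4871 CPM in Empty/T618I libraries A, B and C (-0.49 ± 0.0974 log2, adjusted p = 0.000793, edgeR). Herpud1, a gene of the response to unfolded proteins, went from 195, 194 and 191 to 107, 108 and 106 CPM, and Mcfd2, a cargo receptor, from 188, 185 and 206 to 106, 106 and 96.6 CPM. Xbp1, the factor that drives many of these genes, went the other way, from 384, 382 and 377 to 672, 756 and 633 CPM. Of 48 lysosomal genes 11 fell and 7 rose, 22.9% and 14.6% against 15.9% and 17.6% of all genes. Gm2a, which helps to degrade gangliosides, went from 516, 465 and 447 to 159, 132 and 159.7 CPM.

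The large housekeeping sets had small differences, with median log2 fold changes of 0.02 for ribosomal proteins, -0.09 for oxidative phosphorylation and 0.16 for the proteasome. Of 77 cytoplasmic ribosomal protein genes 1 was called higher and 2 lower, but 11 were called higher without Empty/Empty library C. Of 75 oxidative phosphorylation genes 3 were called higher and 8 lower, with 3 to 10 lower when 1 library was left out. Of 38 proteasome genes 14 were called higher and 0 lower, with 7 without Empty/Empty library A and 19 without Empty/Empty library C. Psmd3, a lid subunit, had 224, 223 and 255 and 295, 337 and 311 CPM. Of 21 aminoacyl-tRNA synthetases 9 rose and 1 fell, and Tars, for threonine, rose by 0.44 ± 0.0816 log2. Of 41 transporters 19 rose and 6 fell, 46.3% and 14.6% against 17.6% and 15.9% of all genes. Slc7a8, a carrier of neutral amino acids, went from 131, 121 and 103 to 441, 315 and 510.2 CPM.

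**Figure D4:**
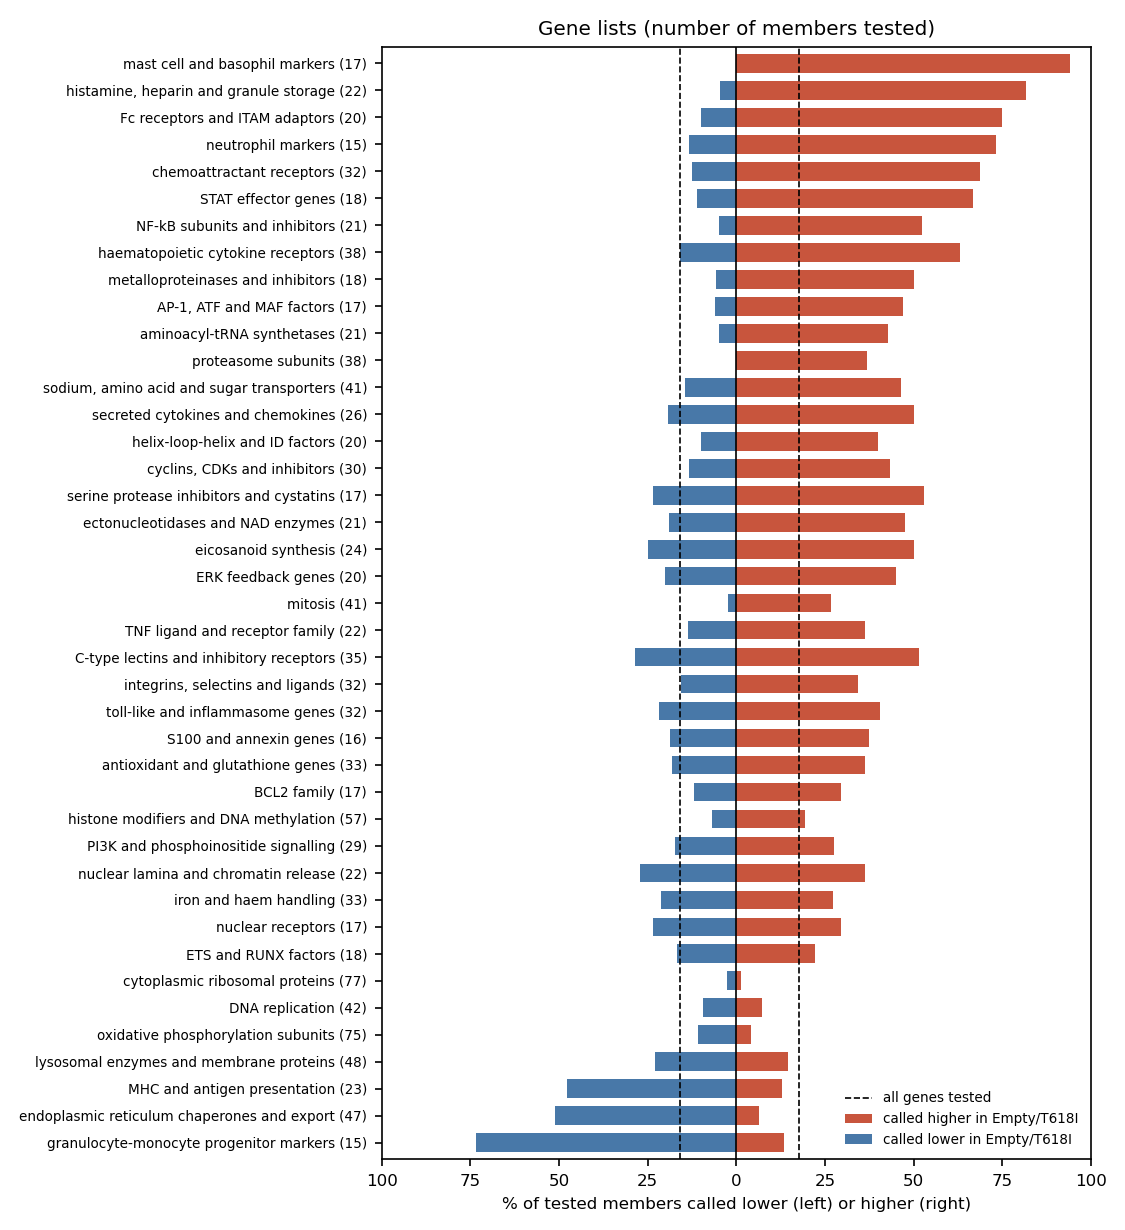
For each list shown, with at least 15 tested members (their number in brackets), the bar to the right gives the share called higher in Empty/T618I and the bar to the left the share called lower, in % of tested members. Dashed lines mark the same shares of all genes tested, 17.6% and 15.9%, and lists are ordered by the difference of the 2 shares, from 16 of 17 mast cell and basophil markers higher at the top to 11 of 15 progenitor markers lower at the bottom.

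Of 30 cyclins, CDKs and inhibitors 13 rose and 4 fell, 43.3% and 13.3% against 17.6% and 15.9% of all genes. Cdkn1a, an inhibitor of CDKs, went from 35.8, 28.1 and 24.2 CPM in Empty/Empty to 97.3, 93.9 and 103 CPM in Empty/T618I libraries A, B and C, Cdkn2d, an inhibitor of CDK4 and CDK6, from 31.6, 25.9 and 29.9 to 88.8, 74.0 and 79.4 CPM, and E2f2, a factor of S phase entry, from 44.7, 48.0 and 41.1 to 159, 136 and 163 CPM. Cdk4 was not called (0.04 ± 0.0759 log2). Of 42 DNA replication genes 3 were called higher and 4 lower, with 1 higher without Empty/Empty library A and 1 lower without Empty/Empty library B, and Rrm1, a ribonucleotide reductase subunit, was at -0.03 ± 0.0699 log2. Of 41 mitosis genes 11 were called higher and 1 lower (5 higher without Empty/Empty library A), with Cdc25b, a phosphatase that starts mitosis, the largest at 1.25 ± 0.1 log2. Among 17 tested BCL2 family genes 5 rose and 2 fell, 29.4% and 11.8% against 17.6% and 15.9% of all genes. Both survival and death genes were among the 5 that rose. Mcl1, which prevents apoptosis, rose from 184, 192 and 214 to 325, 310.5 and 331 CPM. Bcl2l11, which promotes apoptosis, rose from 19.0, 18.3 and 18.2 to 29.2, 32.7 and 35.0 CPM.

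Of 57 histone modifiers and DNA methylation genes 11 rose and 4 fell, and the 19.3% that rose are close to the 17.6% of all genes. The demethylase genes Kdm7a and Kdm6b rose by 3.83 ± 0.283 and 0.96 ± 0.0965 log2, Dnmt3a, which sets new DNA methylation, fell by 0.51 ± 0.0871, and Dnmt1, which maintains it, was not called (0.03 ± 0.0737).

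The same vector difference was measured in the 6 libraries with Asxl1-MT2, which share no library with the comparison above. There 5761 genes were called (49.8%), 26.9% higher and 22.8% lower. Of the 2038 genes that rose with T618I alone, 1476 (72.4%) were also called higher in Asxl1-MT2 cells and 30 were called lower. Of the 1840 that fell, 1135 (61.7%) were also called lower and 116 were called higher. The difference between the 2 effects was called for 2273 genes, 19.6% of those tested, with the effect higher in Asxl1-MT2 cells for 14.1% and lower for 5.51%, among them 658 of the 2038 and 500 of the 1840.

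Neutrophil markers differed in size between the backgrounds. For 15 of 15 the T618I difference was higher in Asxl1-MT2 cells by the test of the difference, against 14.1% of all genes, with a median log2 fold change of 1.46 alone and 4.08 in Asxl1-MT2 cells. The 15 include Csf3r, which may carry construct reads. For Mmp8, a collagenase, the log2 fold change was 5.02 ± 0.247 alone and 9.77 ± 0.295 in Asxl1-MT2 cells, a difference of 4.75 ± 0.419 (adjusted p = 3.54e-06, edgeR). For Camp the 2 values had opposite signs, -2.02 ± 0.314 and 0.89 ± 0.257, and both were called. For the 17 mast cell and basophil markers the test of the difference called 0 at an adjusted p under 0.05 in edgeR, 3 had an unadjusted p under 0.05, and DESeq2 also called 0. Other settings in edgeR called more. With no low-count filter 2 were called, with a block by column letter 1, and without the letter C libraries 1. With 1 library left out, edgeR called 0 to 3. The highest count, 3, came without Empty/T618I library B and without library C of that group. The log2 fold changes had medians of 3.56 alone and 3.85 in Asxl1-MT2 cells. For Gata2 the difference was -0.17 ± 0.19 and for Ms4a2, the beta chain of the IgE receptor, -0.19 ± 0.306. The SE of the difference ran from 0.151 to 3.53 log2 over these markers, and a p that misses the threshold does not show that the effects were alike.

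**Figure D5:**
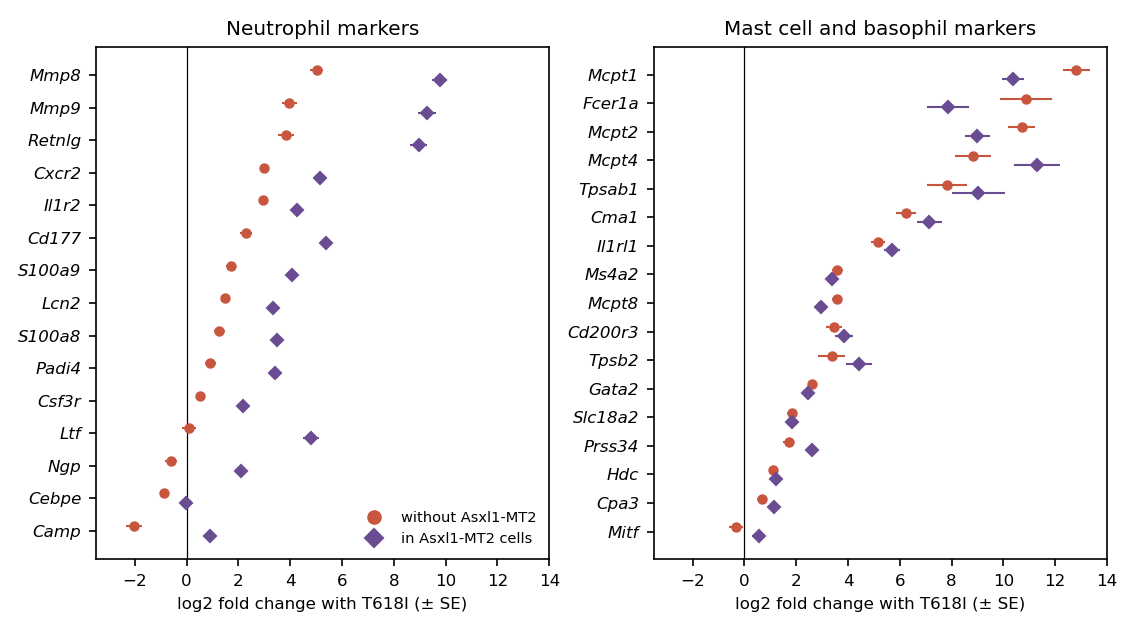
Log2 fold change with T618I (x axis, bars are ± SE) for the 15 neutrophil markers (left) and the 17 mast cell and basophil markers (right), in cells without Asxl1-MT2 (red circles) and in Asxl1-MT2 cells (purple diamonds), ordered by the value without Asxl1-MT2. The purple points lie to the right of the red ones for all 15 neutrophil markers, and on both sides of them for the mast cell and basophil markers.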

How the data were processed

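RNA of 12 HoxB8 libraries was sequenced, of which 3 Empty/Empty and 3 Empty/T618I libraries were compared. The authors deposited 1 table of raw read counts for 24411 gene symbols in 12 columns. Columns were assigned to groups by name, and groups follow the titles. The submitters' processing notes name the mm10 build and Trimmomatic, STAR and DESeq2, without version or role. Counting tool, annotation and strand setting are not given in the sources used here, so how reads of overlapping genes and close copies were assigned is not known.

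In edgeR 4.0.16 (R 4.3.3), filterByExpr kept 11578 symbols with 99.94% of the counts. TMM factors and a quasi-likelihood model of 4 group means over all 12 libraries were used, with Benjamini-Hochberg adjustment across the genes tested. SE is the absolute log2 fold change over the square root of F. On simulated counts for 11423 genes of this comparison, recovery was 83.6% at 1.5-fold, 97.0% at 2-fold and 100% at 4-fold, with 3 false calls. The simulation changed 67, 67 and 66 genes at these sizes, all with a mean of at least 5 CPM. It does not cover genes of lower level, nor changes in as large a share of genes as was called here.

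The comparison and its 58 gene lists were chosen with earlier results of these data known. Each list gave up to 4 called genes each way with the largest log2 fold change and at least 5 CPM in the higher group, and its most abundant gene not called. Further named genes were the 10 largest rises and falls in log2 and in CPM, up to 10 genes with 0 counts in 1 group, Csf3r, Asxl1, Hoxb8 and the JAK, STAT, SOCS and C/EBP genes. A few items that this rule selects are not reported here. Listed symbols that the table does not name (8) were not analysed here. Alternatives were DESeq2, its size factors, other low-count filters, the 6 libraries alone, a block by column letter, and leaving out each library or all of letter C.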

Additional observations from a re-analysis of the deposited data

Results flagged for a closer look

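The T618I difference was measured in cells without and with Asxl1-MT2, and edgeR's test of the difference between these 2 effects was passed by 2273 genes. Values below are log2 differences of the effect in Asxl1-MT2 cells minus the effect alone.

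All 15 tested neutrophil markers were among them. Mmp8, a collagenase, differed by 4.75, the gelatinase Mmp9 by 5.32, Retnlg by 5.13, Ltf by 4.72 and Cd177 by 3.08. Camp differed by 2.91, Ngp by 2.70, Padi4 by 2.48, S100a9 by 2.37, S100a8 by 2.24 and Cxcr2 by 2.14. Lcn2 differed by 1.85, Csf3r by 1.65, Il1r2 by 1.33 and Cebpe by 0.84. Csf3r may carry reads of the construct, which was not tested.

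Of the genes named by the rule, 19 were called in opposite directions alone and in Asxl1-MT2 cells, Camp included. Lower alone and higher with Asxl1-MT2 were Sgsh, a lysosomal enzyme (2.22), Pik3r6 (2.02), Btg1, an antiproliferative gene (1.77), Ptafr, the receptor for platelet-activating factor (1.61), and Tyrobp, an ITAM adaptor (1.58). The same held for the ERK phosphatase gene Dusp6 (1.32), for Cd44 (1.30), Csf2ra (1.23), the transporter gene Slc43a2 (1.17) and Ltb4r1, the receptor for leukotriene B4 (1.14). It also held for Ceacam1 (1.06), Prdx5 (0.99), Sat1 (0.85), Hdac5 (0.84) and Oaz2 (0.67). Higher alone and lower with Asxl1-MT2 were Car2, a carbonic anhydrase (-1.37), Asxl1 (-1.11) and Cycs, cytochrome c (-0.65). Asxl1 is the gene of the other construct, so its values in Asxl1-MT2 cells may carry construct reads, which was not tested. When single libraries were left out or another setting was used, the calls alone of Asxl1, Btg1, Csf2ra, Cycs, Dusp6, Oaz2, Ptafr, Sgsh and Slc43a2 were lost at least once, with adjusted p-values in edgeR or DESeq2 of up to 0.0556 for Asxl1 (without Empty/T618I library C), 0.0676 for Btg1 (without Empty/T618I library B) and 0.0796 to 0.213 for the others.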

How the results depend on the processing

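Under none of the other settings did the number of genes called in this comparison, in Asxl1-MT2 cells or for the difference of both effects move by over 1.5 times. With 1 library left out, 1701 to 2208 genes were higher and 1407 to 1744 lower, and 1277 to 1349 were called and at least 2-fold changed. DESeq2 called 2067 higher and 1732 lower, its size factors in edgeR 2082 and 1791, no filter on low counts 2094 and 1875, and the 6 libraries alone 1768 and 1715. Without the letter C libraries 2291 were higher and 1804 lower. Of the 3878 genes called, 79.7% to 99.6% were called again under each changed setting except the filter at 1 CPM, which gave the identical calls, and all of those kept their direction. With the column letter as a replicate block 2248 genes were higher and 2037 lower. The labels do not say that a letter marks anything shared, so the letters were not taken as pairs. Deviations from the group means correlated at 0.211 for A, 0.043 for B and 0.255 for C between libraries of the same letter. Between libraries of different letters the correlations ran from -0.262 to 0.0896. Whether libraries of the same letter share a culture or a run was not tested. Of the 344 named genes called, 287 were called in every setting and 0 changed direction. The counts of several lists moved by over 1.5 times, and only some of these ranges are given beside the lists. With 1 library left out, 2 to 4 ERK feedback genes were called lower. The same settings called 1 to 2 helix-loop-helix, 1 to 2 BCL2 family and 1 to 2 Fc receptor genes lower. For AP-1, Krüppel-like and metalloproteinase genes the lowest such count was 0. Without the letter C libraries 22 ribosomal protein and 25 proteasome genes were called higher. The causes were not tested. Depth limits genes of low level, where a few counts in 1 group set the interval of a ratio.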
